A study of Capra hircus with 6 samples.

Results

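Goat cells carrying hairpin RNA against UCHL1 (the line shUCHL1) were compared with the same cells carrying control hairpin RNA (shCON). The comparison rests on 4 of the 6 libraries of the series, 2 from each of these lines, and the libraries were chosen by the line named in their titles. The other 2 libraries came from a line with hairpin RNA against HSPA8 (shHSPA8). They served to ask which differences set shUCHL1 apart from the other knockdown line and which were seen in both. All 3 lines were made in mGSCs-I-SB, a cell line from Capra hircus that the labels call spermatogonial stem cells, and all grew in DMEM/F12 medium with 10% fetal bovine serum. The labels give the genotype of shCON as WT, although it carries a hairpin too, so no line without a hairpin enters the comparison. The number of hairpins against UCHL1 is not stated, nor whether shUCHL1 is 1 clone or a pool. Whether the paired libraries of each line are separate cultures is not stated either, so p-values reflect the spread among these libraries alone, and that spread may be technical.

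UCHL1 is a ubiquitin C-terminal hydrolase, an enzyme that frees ubiquitin from small adducts and short extensions so that it can be used again, and it is abundant in neurons and in undifferentiated spermatogonia. HSPA8, an HSP70 chaperone made at all times in the cytosol, helps new proteins fold and hands damaged ones to the proteasome or the lysosome. Spermatogonial stem cells live in the testis beside Sertoli cells and contractile peritubular myoid cells, which supply growth factors and the basement membrane. The series title sets UCHL1 against HSPA8 in the microenvironment of the stem cell.

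Levels are given as CPM, read counts per 1000000 counts of a TMM-scaled library, for replicate 1 and then replicate 2 of each line. Totals ran from 15710537 to 16417273 counts per library, and 12665 genes were tested. A gene is said to have risen or fallen where its adjusted p against shCON was under 0.05. Fold changes are log2, shUCHL1 over the other line named, with a standard error (SE). A gene is called set apart where it passed the same threshold, in the same direction, against shHSPA8 as well. Both of these comparisons use the same shUCHL1 libraries, and the comparisons of the knockdown lines with shCON share the shCON libraries. Replicates differed more in shCON (21.7 times sampling noise per degree of freedom) and shHSPA8 (11.6) than in shUCHL1 (2.32). In shCON and shHSPA8 the difference between replicates followed transcript length, with a median log2 ratio of replicate 1 over replicate 2 of -0.197 in the shortest of 5 equal groups of genes and 0.251 in the longest for shCON, and 0.138 and -0.200 for shHSPA8. For shUCHL1 the same ratio was -0.041 in the shortest group and 0.059 in the longest. The median log2 fold change also followed length. Between the shortest and longest groups it ran from -0.080 to 0.096 against shCON and from -0.105 to 0.080 against shHSPA8. A fit with the length trend removed is given with the other alternatives.

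The cells were also checked against cell type markers. Of 24 markers of undifferentiated spermatogonia, 8 had no values, among them ZBTB16, NANOS2, SALL4 and DAZL, 5 stayed under 1 CPM in every library, and 11 reached it in at least 1. Of the 11, UCHL1 lay between 94.3 and 451 CPM, THY1 between 61.5 and 169 CPM and ITGA6 between 59.2 and 121 CPM. ETV5 lay between 9.99 and 13.3 CPM and ID4 between 1.96 and 10.2 CPM. GFRA1, the GDNF co-receptor, lay between 0.180 and 1.08 CPM, and the germ cell helicase DDX4 between 0.428 and 1.95 CPM. Of 10 Sertoli cell markers, 5 reached 1 CPM in at least 1 library, with GATA4 at 51.6 to 112 CPM and SOX9 at 26.1 to 76.2 CPM. Of 7 Leydig cell markers 3 did, with NR5A1 at 12.3 to 20.3 CPM. All 12 markers of myoid cells and fibroblasts were present, with summed levels of 23902 and 25487 CPM in shCON, 28823 and 29506 CPM in shUCHL1, and 35235 and 35006 CPM in shHSPA8, most of it collagen. Of 6 macrophage and leukocyte markers, CD163 had no values, PTPRC was at or below 0.190 CPM and CSF1R stayed under 1 CPM. The other 3 were LCP1 at 125 to 460 CPM, CD14 at 34.6 to 61.2 CPM and CD68 at 2.60 to 5.04 CPM. The label of the cells comes from the submitters, and few of the 24 markers of undifferentiated spermatogonia stood well above 1 CPM. In such bulk libraries, fewer cells of a type and less RNA per cell cannot be told apart.

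UCHL1 transcripts were much lower in the line that targets them. UCHL1 (gene ID 102178714) stood at 405 and 451 CPM in shCON, 94.3 and 97.7 CPM in shUCHL1 and 386 and 334 CPM in shHSPA8. Both shUCHL1 libraries lay far below the other 4, and the shHSPA8 libraries lay somewhat below those of shCON without passing the test. The log2 fold change was -2.16 (SE 0.11) against shCON and -1.91 (SE 0.11) against shHSPA8, with adjusted p of 1.13e-04 and 2.01e-04 in the quasi-likelihood test of edgeR (Benjamini-Hochberg adjusted). HSPA8 (gene ID 102182240) stood at 4016 and 4112 CPM in shCON, 5252 and 5344 CPM in shUCHL1 and 2631 and 2528 CPM in shHSPA8. The 3 lines did not overlap: shUCHL1 was highest, shCON lay between, and shHSPA8, the line that targets the gene, was lowest. HSPA8 was higher in shUCHL1 than in shCON by 0.38 (SE 0.07), with an adjusted p of 0.0129 in the quasi-likelihood test of edgeR (Benjamini-Hochberg adjusted). That call was lost without shUCHL1 replicate 1 or 2 (adjusted p 0.150 and 0.175), in a fit that takes the variance of the lone remaining library from the other lines. Against shHSPA8 the difference was 1.04 (SE 0.07), with an adjusted p of 4.15e-04.

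**Figure D1:**
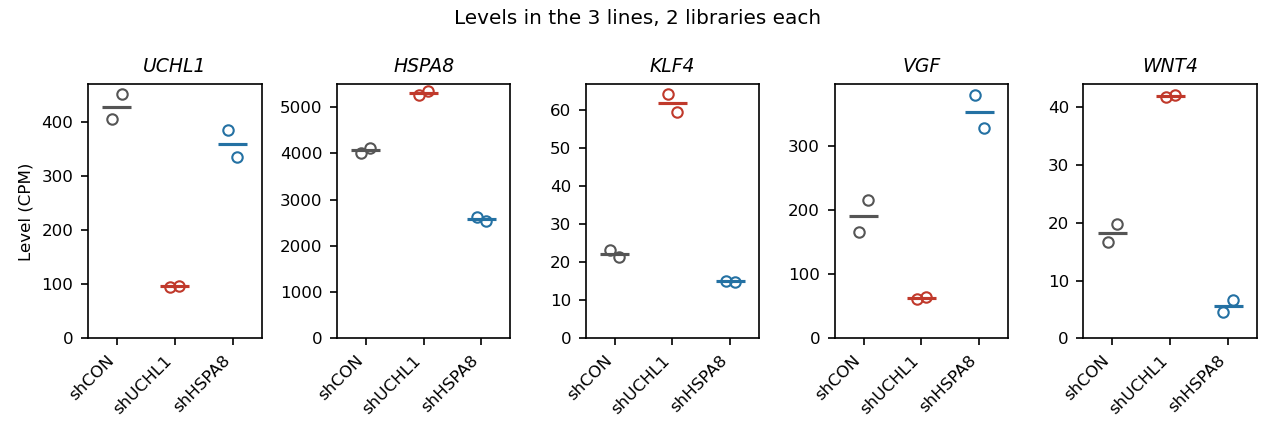
Level of 5 genes in each of the 6 libraries, in CPM on linear axes that start at 0, with 1 open point per library and the mean of each line as a horizontal line. UCHL1 and HSPA8 are the targeted genes; KLF4 and WNT4 were higher in shUCHL1 than in both other lines and lower in shHSPA8 than in shCON, and VGF was the other way round.

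Of 12665 genes, 1987 differed between shUCHL1 and shCON (15.7%), 1082 higher (8.54%) and 905 lower (7.15%), and 794 of them by at least 2-fold (6.27%). In this fit 54.5% of the calls were higher, and 68.1% were with plain library size scaling. Against shHSPA8, 1843 genes differed (14.6%), 785 higher (6.2%) and 1058 lower (8.35%). Set apart from shHSPA8 too were 681 genes (5.38%), 319 higher (2.52%) and 362 lower (2.86%). For all of them, both shUCHL1 libraries lay outside the range of the other 4. The genes were picked by tests on these same libraries, so that separation follows largely from the rule and is no separate support. The median log2 fold change against shCON was 1.13 for those higher and -0.72 for those lower, and 0.01 over all genes tested. At least 2-fold from both other lines were 136 higher and 67 lower genes, and at least 4-fold were 22 and 19. Each library carries weight in these counts. Without shUCHL1 replicate 1, 528 genes were called and 84 set apart, and without replicate 2, 530 and 83. Without shHSPA8 replicate 1 or 2, 239 and 314 genes were set apart, and without shCON replicate 1, 1120 were. Genes described below kept their calls against shCON without any 1 library unless a loss is given. Not every loss of the difference from shHSPA8 is given.

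**Figure D2:**
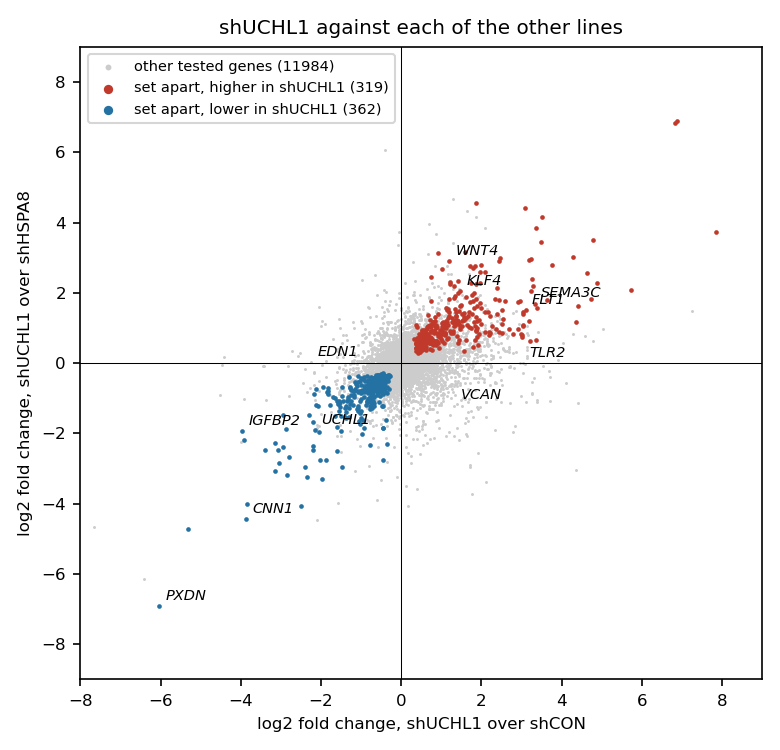
Each of 12665 tested genes by its log2 fold change in shUCHL1 over shCON (horizontal axis) and over shHSPA8 (vertical axis). Red points are the 319 genes set apart higher and blue points the 362 set apart lower; both axes use the same shUCHL1 libraries.

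Genes that rose most and stood apart in shUCHL1 included receptors, secreted factors and a ubiquitin ligase. FLT1, a VEGF receptor, stood at 6.71 and 6.06 CPM in shCON, 55.4 and 54.3 CPM in shUCHL1 and 19.5 and 19.3 CPM in shHSPA8. It rose by 3.10 (SE 0.12) and was 1.501 (SE 0.10) above shHSPA8. SEMA3C, a secreted semaphorin that guides cell migration, stood at 11.5 and 7.59 CPM in shCON, 102 and 89.8 CPM in shUCHL1 and 23.6 and 36.0 CPM in shHSPA8. It rose by 3.34 (SE 0.25) and was 1.69 (SE 0.23) above shHSPA8. Complement C3, the central protein of the complement cascade, stood at 32.0 and 32.9 CPM in shCON, 211 and 210.2 CPM in shUCHL1 and 109 and 104 CPM in shHSPA8, a rise of 2.70 (SE 0.09) and 0.98 (SE 0.08) above shHSPA8. For these genes shHSPA8 lay between shCON and shUCHL1, and no libraries of different lines overlapped. NEDD4L, a ubiquitin ligase, rose by 2.92 and stood 0.97 above shHSPA8, a second difference that was lost without shUCHL1 replicate 1 or 2 (adjusted p 0.0534 and 0.0584). Adjusted p against shCON ran from 8.33e-05 to 4.09e-04 in the quasi-likelihood test of edgeR (Benjamini-Hochberg adjusted), and against shHSPA8 from 4.15e-04 to 0.00515.

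Several of the genes that fell most were left at low levels in shUCHL1. PXDN, the peroxidasin that cross-links collagen IV in basement membranes, stood at 8.74 and 12.2 CPM in shCON, 0.0611 and 0.240 CPM in shUCHL1 and 19.3 and 19.0 CPM in shHSPA8. The shUCHL1 values rest on 5 counts over both libraries. PANX1, a channel that releases ATP, stood at 12.9 and 9.24 CPM in shCON, 1.16 and 1.32 CPM in shUCHL1 and 9.17 and 11.8 CPM in shHSPA8. PXDN was higher in shHSPA8 than in shCON, and PANX1 overlapped between those lines. The log2 fold change against shCON was -6.04 (SE 0.39) for PXDN and -3.15 (SE 0.27) for PANX1. Against shHSPA8 it was -6.91 (SE 0.36) and -3.07 (SE 0.27) in the same order. IGFBP2, which binds insulin-like growth factors in the extracellular space, stood at 36.3 and 49.4 CPM in shCON, 2.75 and 2.70 CPM in shUCHL1 and 10.6 and 10.2 CPM in shHSPA8. The keratin KRT8 stood at 18.3 and 21.3 CPM in shCON, 1.59 and 1.02 CPM in shUCHL1 and 6.26 and 5.69 CPM in shHSPA8. Both fell in shHSPA8 too, and shUCHL1 differed from that line by -1.93 for IGFBP2 and -2.19 for KRT8. All 4 genes had adjusted p of 1.13e-04 to 6.40e-04 against shCON and 1.88e-04 to 0.00233 against shHSPA8 in the quasi-likelihood test of edgeR (Benjamini-Hochberg adjusted).

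The lists of related genes differed in how many members moved. Of lists with at least 15 tested members, the contractile genes had the largest share set apart lower, and the epithelial and stress response lists the largest shares set apart higher. The epithelial share rests on 5 of 16 tested members, and 3 were set apart higher in DESeq2 and 6 in limma-voom. In both lists the number set apart higher fell when any 1 shUCHL1 or shHSPA8 library was left out. It fell over all genes too. Over the lists together 442 members were called, 170 without shUCHL1 replicate 1 and 165 without replicate 2.

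**Figure D3:**
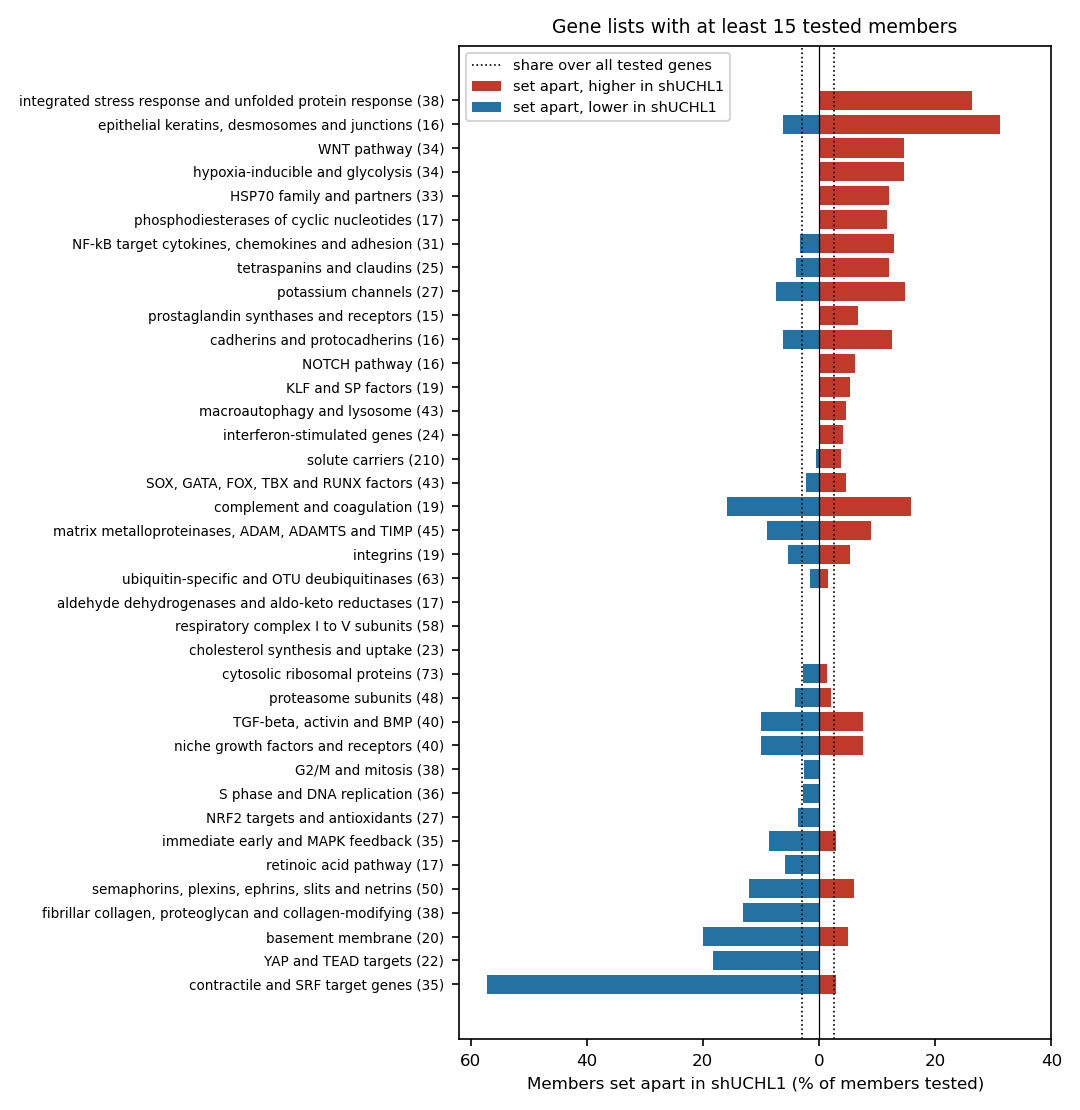
Percent of the tested members of each gene list that were set apart in shUCHL1, higher to the right and lower to the left, for lists with at least 15 tested members, whose number is in brackets; 1 such list is not shown. Dotted lines mark the shares over all 12665 tested genes, 2.52% and 2.86%; the contractile list reaches farthest to the left.

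Contractile genes fell together in shUCHL1. Of 35 tested targets of the transcription factor SRF and other contractile and cytoskeletal genes, 23 fell (65.7%, against 7.15% of all genes) and 1, TES, rose. TES was lost without shUCHL1 replicate 1 or 2 (adjusted p 0.0763 and 0.0665) in the quasi-likelihood test of edgeR (Benjamini-Hochberg adjusted). Of those that fell, 20 were set apart (57.1% of the list, against 2.86% of all genes). The median log2 fold change of the list was -0.61 against shCON and -0.49 against shHSPA8, and 0.01 and 0.02 over all genes. In shHSPA8 against the same shCON libraries, 7 members were lower (6.02% of all genes were) and 2 higher (8.66% of all), with a median of -0.14.

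CNN1, calponin, which binds actin in smooth muscle, stood at 10.8 and 14.3 CPM in shCON, 1.10 and 0.600 CPM in shUCHL1 and 20.9 and 16.4 CPM in shHSPA8. DES, the intermediate filament desmin, stood at 5.70 and 7.59 CPM in shCON, 0.367 and 0.540 CPM in shUCHL1 and 7.84 and 7.05 CPM in shHSPA8. In both, shHSPA8 overlapped shCON or lay above it, and shUCHL1 was far below. The log2 fold change against shCON was -3.88 (SE 0.30) for CNN1 and -3.85 (SE 0.29) for DES. ACTA2, smooth muscle actin, stood at 1476 and 1805 CPM in shCON, 534 and 567 CPM in shUCHL1 and 1324 and 1150.4 CPM in shHSPA8. TAGLN, transgelin, stood at 1528 and 1980.3 CPM in shCON, 663 and 689 CPM in shUCHL1 and 1705 and 1475 CPM in shHSPA8. ACTG2, the enteric smooth muscle actin, stood at 236 and 309 CPM in shCON, 108 and 113 CPM in shUCHL1 and 282 and 251 CPM in shHSPA8. For ACTA2, TAGLN and ACTG2, no shUCHL1 library reached the lowest of the others. Their log2 fold changes against shCON were -1.58 (SE 0.12), -1.38 (SE 0.14) and -1.30 (SE 0.14). Against shHSPA8 the 5 genes differed by -4.45, -4.01, -1.17, -1.23 and -1.27 in the order given here. MYLK, the kinase that activates myosin light chain, stood at 57.7 and 53.4 CPM in shCON, 27.8 and 27.8 CPM in shUCHL1 and 79.6 and 85.4 CPM in shHSPA8, so that it was lower in shUCHL1 and higher in shHSPA8. Adjusted p for these 6 genes ran from 3.98e-04 to 0.00153 against shCON and from 3.14e-04 to 0.00243 against shHSPA8, in the quasi-likelihood test of edgeR (Benjamini-Hochberg adjusted).

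Not all of the list moved. The tropomyosins TPM1, TPM2 and TPM4 fell by 0.57, 0.83 and 0.57. In the quasi-likelihood test of edgeR (Benjamini-Hochberg adjusted), TPM1 was lost without shUCHL1 replicate 1 (adjusted p 0.0713), TPM2 without shUCHL1 replicate 1 or 2 (adjusted p 0.0752 and 0.0590) and TPM4 without shUCHL1 replicate 2 (adjusted p 0.0615). The focal adhesion genes VCL (-0.21) and ZYX (-0.52) and SRF itself (-0.31) did not pass the test. MYOCD, the SRF co-activator of smooth muscle, fell in both knockdown lines, from 35.8 and 28.9 CPM in shCON to 11.3 and 10.8 CPM in shUCHL1 and 10.2 and 13.6 CPM in shHSPA8, with a difference of -0.11 (SE 0.18) between the knockdown lines. MYH11, smooth muscle myosin, was low throughout, from 1.59 to 3.23 CPM. Leaving out shUCHL1 replicate 1 or 2 left 15 and 16 members lower and 8 and 7 set apart. Leaving out shHSPA8 replicate 1 or 2 left 11 and 13 set apart. ACTA2, ACTG2, CNN1, DES, LMOD1, MYLK and TAGLN were set apart whichever library was left out. Of the list, ACTA2, CNN1, DES, TAGLN and MYH11 are also on the list of 12 myoid and fibroblast markers. Of that list 4 fell (33.3%, against 7.15% of all genes), ACTA2, CNN1, DES and TAGLN. All of these were set apart (33.3%, against 2.86% of all genes), while 3 members rose (25%, against 8.54%). Its summed level, given above, is mostly collagen and does not follow these 4 genes. The part of myoid cell number in the fall of contractile genes was not tested.

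**Figure D4:**
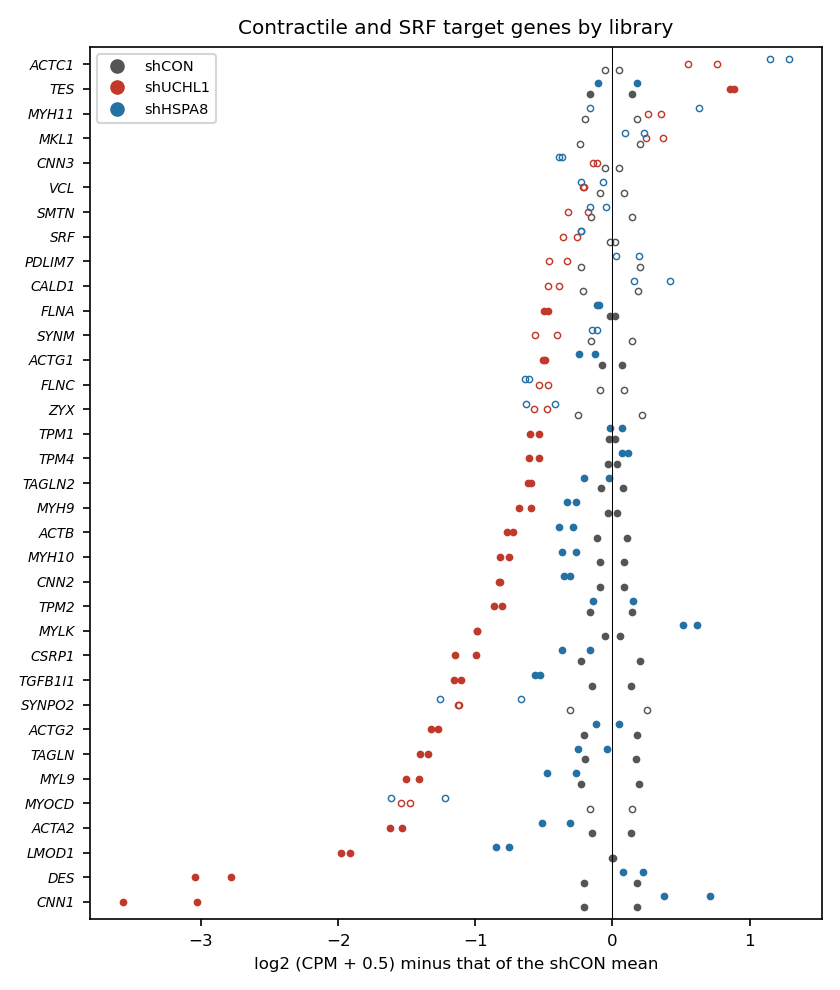
Contractile and SRF target genes in each library, as the log2 difference of CPM + 0.5 from the shCON mean, 1 row per gene and 1 point per library. Filled points mark the 21 genes set apart in shUCHL1 and open points the others; for most filled genes the shUCHL1 points lie left of all the rest.

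Targets of YAP, a co-activator that responds to cell tension, and of the TEAD transcription factors that it binds also fell. Of 22 tested, 11 fell (50%, against 7.15% of all genes) and none rose in edgeR, DESeq2 or limma-voom (2 were higher at an unadjusted p under 0.05 in edgeR), with 4 set apart lower (18.2%, against 2.86%) and a median log2 fold change of -0.42. Without either shUCHL1 library, 4 members were lower. The number set apart lower was 2 and 1 without shUCHL1 replicate 1 or 2, 2 without shHSPA8 replicate 1 and 7 without shCON replicate 1. CTGF, the connective tissue growth factor, stood at 467 and 488 CPM in shCON, 199.7 and 201 CPM in shUCHL1 and 329 and 357 CPM in shHSPA8. ANKRD1, a nuclear cofactor induced by stretch, stood at 389.9 and 399 CPM in shCON, 95.5 and 86.3 CPM in shUCHL1 and 156 and 146 CPM in shHSPA8. In both genes the 3 lines kept one order, with shCON highest, shHSPA8 between and shUCHL1 lowest. CTGF fell by 1.25 and ANKRD1 by 2.12, with adjusted p of 2.94e-04 and 8.33e-05 in the quasi-likelihood test of edgeR (Benjamini-Hochberg adjusted). Against shHSPA8 they differed by -0.77 and -0.73, and that difference was lost for ANKRD1 without shUCHL1 replicate 2 (adjusted p 0.0657). CYR61, a matrix-bound relative of CTGF, fell by 0.96. It was no longer set apart without shHSPA8 replicate 1 or without shUCHL1 replicate 1 or 2. YAP1 itself (-0.27) and its relative WWTR1 (0.23) did not pass the test.

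Secreted matrix genes that are among the most abundant transcripts of these cells fell in shUCHL1 and stood apart. FN1, fibronectin, stood at 12039 and 10571 CPM in shCON, 5301 and 5173 CPM in shUCHL1 and 12150.0 and 13731 CPM in shHSPA8. THBS1, thrombospondin, which binds and activates latent TGF-beta, stood at 11190.0 and 9051 CPM in shCON, 4478 and 4298 CPM in shUCHL1 and 8844 and 11182 CPM in shHSPA8. In each gene all 4 libraries of shCON and shHSPA8 were higher than both of shUCHL1, and shCON and shHSPA8 overlapped for THBS1. FN1 fell by 1.11 and THBS1 by 1.21, with adjusted p of 7.25e-04 and 0.00218 in the quasi-likelihood test of edgeR (Benjamini-Hochberg adjusted). Against shHSPA8 they differed by -1.31 and -1.19. IGFBP7, which is bound in the matrix, fell by 1.40 and THBD, the thrombin receptor thrombomodulin, by 1.54. Of the fibrillar collagens, COL3A1 stood at 6085 and 5638 CPM in shCON, 10208 and 10064 CPM in shUCHL1 and 11390.0 and 12302 CPM in shHSPA8. It rose by 0.79 against shCON and did not pass the test against shHSPA8, with a difference of -0.22 (SE 0.08). COL1A1 (0.15) and COL1A2 (0.18), the chains of collagen I, did not pass the test against shCON. Of the 38 tested fibrillar collagen, proteoglycan and collagen-modifying genes, 9 rose (23.7%, against 8.54% of all genes) and 5 fell (13.2%, against 7.15%) in shUCHL1. The number that rose was 4 and 5 without shUCHL1 replicate 1 or 2. In shHSPA8 23 rose, where 8.66% of all genes did.

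Basement membrane genes were spread over both directions. Of 20 tested, 5 rose and 5 fell in shUCHL1, 25% in each direction against 8.54% and 7.15% of all genes. Set apart lower were 4 (20%, against 2.86%), PXDN, NID2, COL4A1 and COL4A2, and 1 higher, LAMA3. Without either shUCHL1 library, 3 rose and 1, PXDN, was set apart lower. In shHSPA8 14 rose (8.66% of all genes did). The collagen IV chain COL4A1 stood at 207 and 219 CPM in shCON, 148 and 160.0 CPM in shUCHL1 and 571 and 549 CPM in shHSPA8, so that the knockdown lines lay on either side of shCON. NID2, nidogen, which links laminin to collagen IV, stood at 337 and 339 CPM in shCON, 217 and 221 CPM in shUCHL1 and 320.0 and 364 CPM in shHSPA8. COL4A1 lost its call against shCON without shUCHL1 replicate 1 or 2 (adjusted p 0.165 and 0.0878) and NID2 without shUCHL1 replicate 1 or 2 (adjusted p 0.0713 and 0.0606). COL4A2 was lost without shCON replicate 2 or shUCHL1 replicate 1 or 2 (adjusted p 0.0748, 0.240 and 0.178). LAMA3, a laminin chain of epithelia, rose from 1.27 and 1.29 CPM to 8.74 and 8.99 CPM, with 4.74 and 5.30 CPM in shHSPA8. Its difference from shHSPA8 was lost without shHSPA8 replicate 1 or 2 or shUCHL1 replicate 1 or 2 (adjusted p 0.0974, 0.0534, 0.123 and 0.135). All adjusted p here come from the quasi-likelihood test of edgeR (Benjamini-Hochberg adjusted).

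Activin and its inhibitor fell in the same cells. INHBA, the subunit of activin A, stood at 73.2 and 80.4 CPM in shCON, 26.6 and 25.7 CPM in shUCHL1 and 52.8 and 57.1 CPM in shHSPA8. FST, follistatin, which binds and blocks activin, stood at 199 and 205 CPM in shCON, 47.2 and 45.3 CPM in shUCHL1 and 103 and 108 CPM in shHSPA8. In both the 3 lines did not overlap, and shUCHL1 was lowest. INHBA fell by 1.55 and FST by 2.13, with adjusted p of 2.94e-04 and 8.33e-05 in the quasi-likelihood test of edgeR (Benjamini-Hochberg adjusted), and against shHSPA8 they differed by -1.07 and -1.19. INHBB, the subunit of activin B, rose at a low level, from 0.253 and 0.367 CPM to 1.53 and 1.92 CPM, and that call was lost without shUCHL1 replicate 2 (adjusted p 0.0523). The BMP inhibitor NOG had 1 count over both shCON libraries and stood at 2.20 and 1.92 CPM in shUCHL1. Of the 40 tested genes of these pathways, 9 rose (22.5%, against 8.54% of all genes) and 6 fell (15%, against 7.15%), and 6 and 4 rose without shUCHL1 replicate 1 or 2. The receptors TGFBR2 and TGFBR3 rose by 0.93 and 1.60, without standing apart from shHSPA8, and none of the tested SMAD genes passed the test.

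Genes of the endoplasmic reticulum and amino acid stress responses rose in shUCHL1, and part of them stood apart from shHSPA8. Of 38 tested members of the integrated stress response and the unfolded protein response, 18 rose (47.4%, against 8.54% of all genes) and 1 fell, MANF, which was lost without shCON replicate 2 or shUCHL1 replicate 1 or 2 (adjusted p 0.0703, 0.295 and 0.188) in the quasi-likelihood test of edgeR (Benjamini-Hochberg adjusted). The median log2 fold change was 0.48. Of those that rose, 10 were set apart (26.3%, against 2.52% of all genes). In shHSPA8, 11 were higher and 1 lower (8.66% and 6.02% of all genes were), with a median of 0.15.

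HSPA5, the HSP70 chaperone of the endoplasmic reticulum, stood at 1332 and 1274 CPM in shCON, 2129 and 2203 CPM in shUCHL1 and 1184 and 1163 CPM in shHSPA8. HERPUD1, which takes part in the removal of misfolded proteins from that compartment, stood at 59.5 and 64.0 CPM in shCON, 146 and 159 CPM in shUCHL1 and 84.1 and 78.6 CPM in shHSPA8. TRIB3, a pseudokinase induced by ATF4 and CHOP, stood at 20.5 and 25.6 CPM in shCON, 45.9 and 47.3 CPM in shUCHL1 and 21.9 and 20.8 CPM in shHSPA8. For HSPA5 and TRIB3 the shHSPA8 libraries lay below or within the range of shCON, and for all 3 genes shUCHL1 was highest. They rose by 0.73 (SE 0.07), 1.30 (SE 0.10) and 1.02 (SE 0.13), with adjusted p of 0.00113, 3.77e-04 and 0.00297 in the quasi-likelihood test of edgeR (Benjamini-Hochberg adjusted). They stood 0.88, 0.91 and 1.13 above shHSPA8. DDIT3, the transcription factor CHOP, stood at 26.1 and 32.0 CPM in shCON, 39.6 and 46.0 CPM in shUCHL1 and 23.5 and 20.9 CPM in shHSPA8, and its rise of 0.56 was called without shCON replicate 1 and lost without each of the other libraries (adjusted p up to 0.295). CHAC1, which breaks down glutathione, and SESN2, a leucine sensor, rose by 1.55 and 1.34. Their differences from shHSPA8 were 1.42 and 1.09, lost for CHAC1 without shUCHL1 replicate 1 or 2 (adjusted p 0.0501 and 0.0601) and for SESN2 without shUCHL1 replicate 1 or 2 (adjusted p 0.0613 and 0.0663).

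Enzymes of serine and asparagine synthesis, which ATF4 also induces, rose in both knockdown lines. PSAT1 stood at 53.9 and 49.9 CPM in shCON, 119 and 129 CPM in shUCHL1 and 111 and 112 CPM in shHSPA8. It rose by 1.26 in shUCHL1 and 1.10 in shHSPA8, and the difference between them, 0.15 (SE 0.09), did not pass the test. ASNS, asparagine synthetase, rose by 0.84 and 0.71. Transcripts of ATF4 (0.29), XBP1 (0.23), CALR (-0.04) and CANX (0.11) did not pass the test in shUCHL1. Without shUCHL1 replicate 1 or 2, 12 and 10 members rose and 3 and 3 were set apart. Without shHSPA8 replicate 1 or 2, 7 and 6 were set apart. HSPA5, HERPUD1 and TRIB3 were set apart whichever library was left out.

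**Figure D5:**
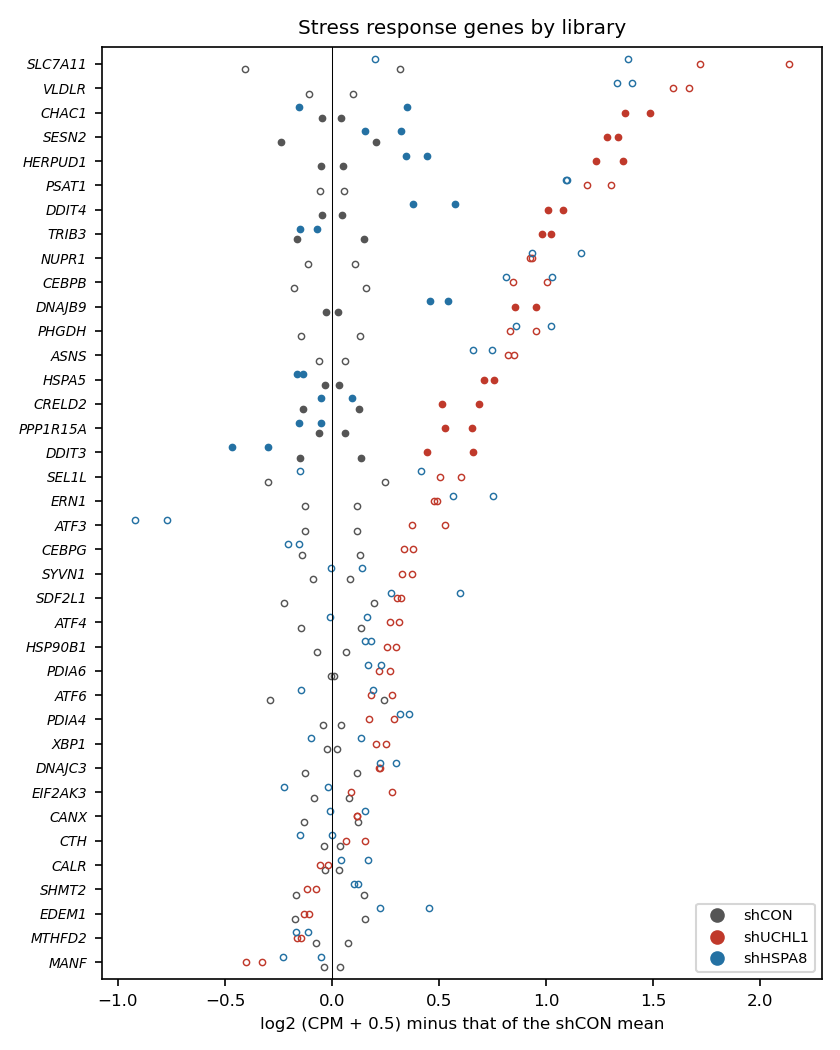
Genes of the integrated stress response and the unfolded protein response in each library, as the log2 difference of CPM + 0.5 from the shCON mean, 1 row per gene and 1 point per library. Filled points mark the 10 genes set apart in shUCHL1, where the shUCHL1 points lie right of all the rest, and open points the other members.

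Part of the HSP70 family and its partners rose in shUCHL1, and most of the ubiquitin system did not pass the test. Of 33 HSP70 family members and partners, 8 rose (24.2%, against 8.54% of all genes), with a median of 0.10. Set apart higher were 4 (12.1%, against 2.52%). Without either shUCHL1 library, 3 rose and 1 was set apart. None fell in edgeR, DESeq2 or limma-voom, and 2 were lower at an unadjusted p under 0.05 in edgeR. The set apart members were cytosolic HSPA8, HSPA5 and HYOU1 of the endoplasmic reticulum, and HSPA12A, whose difference from shHSPA8 was lost without shHSPA8 replicate 1 or 2 or shUCHL1 replicate 1 or 2 (adjusted p 0.113, 0.0532, 0.151 and 0.0534). HYOU1 stood at 426 and 441 CPM in shCON, 606 and 599 CPM in shUCHL1 and 405 and 390.4 CPM in shHSPA8, and its rise of 0.48 was lost without shUCHL1 replicate 1 or 2 (adjusted p 0.114 and 0.104) in the quasi-likelihood test of edgeR (Benjamini-Hochberg adjusted). The co-chaperones DNAJA1 (0.13) and DNAJB1 (0.10) and the HSP90 genes HSP90AA1 (0.28) and HSP90AB1 (-0.02) did not pass the test. Of 14 genes of the UCH family, ubiquitin and related modifiers, UCHL1 and BAP1 fell (14.3%, against 7.15% of all genes). UCHL3, the closest relative of UCHL1, stood at 63.3 and 68.6 CPM in shCON, 77.2 and 81.2 CPM in shUCHL1 and 74.2 and 68.1 CPM in shHSPA8, a difference of 0.26 (SE 0.10) that did not pass the test. BAP1 differed by -0.40, a call lost in every leave-one-out fit except the one lacking shCON replicate 1 (adjusted p up to 0.290). UBB, which encodes ubiquitin itself, differed by 0.06 and did not pass. Of 48 proteasome subunit genes, 1 rose and 4 fell (10.4% in all, against 15.7% of all genes), and without shUCHL1 replicate 1 or 2 0 and 1 fell. Of 63 other deubiquitinases, 3 rose and 3 fell (9.52%), and those that rose were 7 without shCON replicate 1 and 1 without either shUCHL1 library.

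A cell cycle inhibitor and a hypoxia-inducible enzyme were among the further genes set apart higher. CDKN1A, the cyclin-dependent kinase inhibitor p21, stood at 27.4 and 30.9 CPM in shCON, 63.0 and 65.2 CPM in shUCHL1 and 40.6 and 39.9 CPM in shHSPA8. It rose by 1.14 (SE 0.10) and stood 0.67 above shHSPA8, which was lost without shUCHL1 replicate 1 or 2 (adjusted p 0.0835 and 0.0950). PMAIP1, the BH3-only protein NOXA, rose by 1.88 from 1.14 and 1.29 CPM to 4.46 and 4.50 CPM. It was no longer set apart without shHSPA8 replicate 1 or without shUCHL1 replicate 1 or 2. MDM2 (0.18), a ubiquitin ligase, and BAX (-0.23), a promoter of apoptosis, did not pass the test. EGLN3, a prolyl hydroxylase of the hypoxia pathway, stood at 3.99 and 3.86 CPM in shCON, 9.41 and 8.63 CPM in shUCHL1 and 2.72 and 2.39 CPM in shHSPA8. It rose by 1.20 (SE 0.16) with an adjusted p of 0.00324 in the quasi-likelihood test of edgeR (Benjamini-Hochberg adjusted), and stood 1.82 above shHSPA8. Of 34 hypoxia-inducible and glycolytic genes, 12 rose (35.3%, against 8.54% of all genes) and 1 fell, and 5 were set apart higher (14.7%, against 2.52%). Leaving out any 1 of the shUCHL1 or shHSPA8 libraries left 1 set apart higher. SLC2A1, the glucose transporter, and VEGFA rose in shUCHL1 by 0.82 and 0.70 and in shHSPA8 by 1.45 and 1.11. VEGFA lost its call against shCON without shUCHL1 replicate 1 (adjusted p 0.0513). Of 43 autophagy and lysosome genes, 9 rose (20.9%, against 8.54% of all genes) and 1 fell (2.33%, against 7.15%). The 9 became 5 without shCON replicate 1 and 4 without either shHSPA8 library. Without shUCHL1 replicate 1 or 2, 4 and 5 hypoxia genes and 1 of the autophagy list rose.

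Several genes went opposite ways in the knockdown lines. WNT4, a WNT ligand of the developing gonad, stood at 16.7 and 19.7 CPM in shCON, 41.7 and 42.0 CPM in shUCHL1 and 4.61 and 6.66 CPM in shHSPA8. KLF4, a zinc finger factor of pluripotent cells and of epithelia, stood at 23.1 and 21.4 CPM in shCON, 64.1 and 59.4 CPM in shUCHL1 and 15.2 and 14.7 CPM in shHSPA8. For both, shUCHL1 was above shCON and shHSPA8 below it. WNT4 differed by 1.20 (SE 0.16) from shCON and 2.89 (SE 0.18) from shHSPA8, and KLF4 by 1.47 (SE 0.10) and 2.05 (SE 0.11). VGF, a secreted neuropeptide precursor, stood at 166 and 215 CPM in shCON, 60.8 and 64.1 CPM in shUCHL1 and 379.6 and 327 CPM in shHSPA8. TAC1, the precursor of substance P, stood at 3.93 and 4.22 CPM in shCON, 0.855 and 1.20 CPM in shUCHL1 and 9.99 and 10.3 CPM in shHSPA8. KCNMB1, the beta subunit of the calcium-activated potassium channel of smooth muscle, stood at 5.63 and 6.55 CPM in shCON, 2.26 and 2.10 CPM in shUCHL1 and 16.6 and 17.6 CPM in shHSPA8. These 3 genes fell in shUCHL1 and rose in shHSPA8. The subunit that forms the pore of that channel, KCNMA1, stood at 1.46 and 1.10 CPM in shCON, 9.96 and 11.3 CPM in shUCHL1 and 4.24 and 3.75 CPM in shHSPA8, so that in shUCHL1 the pore subunit rose by 3.05 while the beta subunit fell by 1.48. All these genes had adjusted p of 2.98e-04 to 0.00365 against shCON and 1.88e-04 to 0.00347 against shHSPA8 in the quasi-likelihood test of edgeR (Benjamini-Hochberg adjusted).

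Epithelial junction genes rose from low levels while keratins fell. Of 16 tested, 10 rose (62.5%, against 8.54% of all genes) and 3 fell (18.8%, against 7.15%), with a median of 1.07. In DESeq2, with a mean of at least 1 CPM, and without shCON replicate 2, 5 rose. DSP, desmoplakin, which ties keratin filaments to desmosomes, stood at 0.507 and 0.735 CPM in shCON, 5.74 and 6.42 CPM in shUCHL1 and 0.759 and 1.55 CPM in shHSPA8. It rose by 3.27 (SE 0.33) and stood 2.39 above shHSPA8, with adjusted p of 0.00123 and 0.00382 in the quasi-likelihood test of edgeR (Benjamini-Hochberg adjusted). EPCAM, an adhesion molecule of epithelia and spermatogonia, stood at 1.46 and 1.04 CPM in shCON, 2.87 and 2.70 CPM in shUCHL1 and 1.14 and 1.16 CPM in shHSPA8, with a rise of 1.16 that was lost without shCON replicate 2 or shUCHL1 replicate 1 or 2 (adjusted p 0.0768, 0.148 and 0.117). KRT8 fell as given above, and its partner KRT18 fell from 3.74 and 3.92 CPM to 0.122 and 0.600 CPM, with 1.01 and 0.517 CPM in shHSPA8. JUP, plakoglobin, fell by 1.28 in shUCHL1 and 1.26 in shHSPA8. Without either shUCHL1 library, 3 members of the list rose. THY1, a surface marker used to enrich spermatogonial stem cells and also found on fibroblasts, stood at 140.2 and 169 CPM in shCON, 61.5 and 65.8 CPM in shUCHL1 and 148 and 135 CPM in shHSPA8. It fell by 1.28 and differed from shHSPA8 by -1.15, with adjusted p of 8.69e-04 and 0.00190. LCP1, an actin-bundling protein of leukocytes, stood at 459 and 460.1 CPM in shCON, 125 and 132 CPM in shUCHL1 and 241 and 231 CPM in shHSPA8, a fall of 1.84.

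Cholesterol synthesis genes fell in shUCHL1, and none was set apart from shHSPA8 in edgeR's test. Of 23 tested, 16 fell (69.6%, against 7.15% of all genes), and the median was -0.56. At an unadjusted p under 0.05 against both other lines, 1 member was set apart in edgeR. At the adjusted threshold, none was in DESeq2 and 1 was in limma-voom. In shHSPA8 19 fell (6.02% of all genes did), with a median of -0.65. HMGCS1, which makes HMG-CoA from acetyl-CoA units, stood at 508 and 412 CPM in shCON, 263 and 258 CPM in shUCHL1 and 201 and 211 CPM in shHSPA8. FDPS, farnesyl diphosphate synthase, stood at 265 and 294 CPM in shCON, 146 and 152 CPM in shUCHL1 and 168 and 151 CPM in shHSPA8. Both knockdown lines lay below shCON, and the difference between them was 0.34 (SE 0.11) for HMGCS1 and -0.10 (SE 0.10) for FDPS, neither past the test. Without shUCHL1 replicate 1 or 2, 3 and 4 members fell. INSIG1, which holds back the SREBP factors, fell in both lines and stood 0.70 above shHSPA8. That difference was lost without shHSPA8 replicate 1 or shUCHL1 replicate 1 or 2 (adjusted p 0.0574, 0.0853 and 0.0933). Its fall of 0.51 against shCON was lost without shUCHL1 replicate 1 or 2 (adjusted p 0.178 and 0.143) in the quasi-likelihood test of edgeR (Benjamini-Hochberg adjusted).

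Inflammatory genes rose in both knockdown lines, and 4 of them were set apart higher in shUCHL1 (12.9% of the list, against 2.52% of all genes). That number was 2 and 1 without shUCHL1 replicate 1 or 2 and 2 without shHSPA8 replicate 1. Of 31 NF-kB targets, 19 rose (61.3%, against 8.54% of all genes) and 2 fell (6.45%, against 7.15%), with a median of 0.90. Set apart lower was 1 (3.23%, against 2.86% of all genes). In shHSPA8 23 rose (8.66% of all genes did), with a median of 1.21. PTGS2, the inducible prostaglandin synthase, stood at 16.7 and 15.2 CPM in shCON, 105 and 106 CPM in shUCHL1 and 214 and 253 CPM in shHSPA8. CCL20, a chemokine, stood at 51.9 and 54.7 CPM in shCON, 190.1 and 192 CPM in shUCHL1 and 334 and 322 CPM in shHSPA8. SOD2, the mitochondrial superoxide dismutase, stood at 94.7 and 94.6 CPM in shCON, 187 and 193 CPM in shUCHL1 and 409 and 428 CPM in shHSPA8. In these 3 genes shUCHL1 lay between the other lines without overlap, -1.15, -0.78 and -1.14 from shHSPA8, with adjusted p of 0.00141, 0.00198 and 4.15e-04 in the quasi-likelihood test of edgeR (Benjamini-Hochberg adjusted). IL6, an inflammatory cytokine, stood at 71.0 and 71.7 CPM in shCON, 71.0 and 69.8 CPM in shUCHL1 and 236 and 232 CPM in shHSPA8. Its shUCHL1 and shCON values overlapped, with a log2 difference of -0.02 (SE 0.08), and both shHSPA8 values lay above them. C3, ICAM1, BIRC3 and TNFAIP2 were the members set apart higher in shUCHL1. TNFAIP2 was no longer set apart when shHSPA8 replicate 1 or 2 was left out. ICAM1, an adhesion molecule for leukocytes, stood at 40.8 and 39.3 CPM in shCON, 103 and 108 CPM in shUCHL1 and 64.2 and 58.7 CPM in shHSPA8, and its difference from shHSPA8 was lost without shUCHL1 replicate 2 (adjusted p 0.0584). BIRC3 lost its call against shCON without shCON replicate 2 or shUCHL1 replicate 1 or 2 (adjusted p 0.0657, 0.179 and 0.145) and TNFAIP2 without shUCHL1 replicate 1 or 2 (adjusted p 0.151 and 0.0714). Without shUCHL1 replicate 1 or 2, 12 and 9 members rose.

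A few genes moved by nearly equal amounts in both knockdown lines. EDN1, the vasoconstrictor peptide endothelin, stood at 45.6 and 52.0 CPM in shCON, 9.59 and 10.9 CPM in shUCHL1 and 10.2 and 9.76 CPM in shHSPA8. TLR2, a receptor for bacterial lipoproteins, stood at 1.33 and 1.41 CPM in shCON, 11.3 and 11.2 CPM in shUCHL1 and 11.3 and 11.4 CPM in shHSPA8. TXNIP, an inhibitor of thioredoxin and of glucose uptake, stood at 60.3 and 52.3 CPM in shCON, 154 and 154 CPM in shUCHL1 and 144 and 151 CPM in shHSPA8. Their differences between the knockdown lines were 0.04 (SE 0.14), -0.01 (SE 0.12) and 0.06 (SE 0.10). They were chosen for a high p in that comparison, so the likeness is a description. Counts for some housekeeping lists turned on single libraries. Over all genes too, more were called lower without shCON replicate 1 and fewer without shUCHL1 replicate 1 or 2. Of 73 cytosolic ribosomal proteins, 1 was higher and 4 lower (5.48%, against 7.15% of all genes), but 29 were lower and 11 set apart lower without shCON replicate 1. In edgeR's fits that lacked another library, between 0 and 2 were lower. Of 58 respiratory subunits, 1 was lower (1.72%), and 12 were without shCON replicate 1. Of 38 G2/M and mitosis genes, 5 were lower (13.2%), 2 without either shHSPA8 library and 0 without either shUCHL1 library.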

How the data were processed

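Messenger RNA libraries were made with a SMARTER kit from 1.3 ug of total RNA, per the labels' protocols, and the sample titles gave each library's group and number. Per the submitters' processing notes, Trimmomatic 0.36 was used. No aligner, counting tool, genome build or use of strand is given in the sources used here. The authors deposited 1 table of 33229 entries, 16599 of them with values. Per the file headers it gives a read count and an FPKM value per library, and the authors' own group means, log2 ratios and p-values, which were not used. Between 1014 and 1117 genes per library carry counts with a decimal part, so the deposited values were treated as estimated counts (expected counts) and rounded to whole numbers. The deposited FPKM values served only for transcript length. All 16599 gene IDs were found in the RefSeq table of assembly ARS1.2, 16597 with the same symbol, and it was used for names only.

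Lines were compared with the quasi-likelihood F test of edgeR 4.0.16 (R 4.3.3) after filterByExpr and TMM scaling, over all 6 libraries with the line as the only term and 3 residual degrees of freedom, with Benjamini-Hochberg adjustment over 12665 genes and a threshold of 0.05. Dividing the log2 fold change by the root of its F statistic gave the SE. On simulated data for shUCHL1 against shCON (12255 genes tested) the recovered genes were 24 of 67 at 1.5-fold, 60 of 67 at 2-fold and 65 of 66 at 4-fold. The test called 14 of 12055 unchanged genes there. Changed genes were drawn only from those with a shCON mean above 1 CPM, so the rates do not cover genes below it. The simulated shHSPA8 libraries had the levels of shCON. Each simulated gene had the same spread in all lines, and no length trend was put in. The real libraries differ in both respects, so these rates may not hold for them.

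The comparison, the members of the 52 gene lists (20 built from symbol patterns) and the rules were chosen with earlier results of these data known. Named genes were UCHL1 and HSPA8; the 12 largest rises and 12 largest falls among genes set apart with at least 5 CPM on average; up to 3 set apart members per list in its main direction and 2 in the other; 5 genes per sign called in opposite directions in the knockdown lines; 3 per direction called alike with an unadjusted p over 0.5 between those lines; and the 6 most abundant calls per direction. This gave 144 genes, not all described, and list members named beyond them were chosen after their values were seen. No fold is given for genes with 3 or fewer counts summed in a line. Alternatives were other scalings and filters, fewer libraries, a replicate block, DESeq2 1.42.0 and limma-voom (limma 3.58.1). No sequences were read, and some genes are not reported here.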

Additional observations from a re-analysis of the deposited data

Results flagged for a closer look

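Against shCON, 36 genes were called in opposite directions in the knockdown lines. The 5 per sign taken by the naming rule are given here, and for each the difference between these lines was tested directly in the quasi-likelihood test of edgeR (Benjamini-Hochberg adjusted). Differences between the knockdown lines are log2, shUCHL1 over shHSPA8. Higher in shUCHL1 were WNT4 at 2.89 and KLF4 at 2.05, both described above, and C23H6orf132, PPP1R3G and F11R. C23H6orf132 stood at 14.6 and 15.5 CPM in shCON, 34.3 and 36.0 CPM in shUCHL1 and 7.71 and 6.92 CPM in shHSPA8, a difference of 2.26 between the knockdown lines. PPP1R3G stood at 3.74 and 4.47 CPM in shCON, 10.1 and 9.05 CPM in shUCHL1 and 2.09 and 1.81 CPM in shHSPA8, a difference of 2.29. PPP1R3G is a glycogen-targeting subunit of a protein phosphatase, and its rise against shCON was lost without shUCHL1 replicate 1 (adjusted p 0.0545). F11R, a tight junction adhesion molecule, stood at 6.39 and 5.57 CPM in shCON, 9.77 and 10.1 CPM in shUCHL1 and 2.78 and 3.04 CPM in shHSPA8, a difference of 1.77, and its rise against shCON was lost without shUCHL1 replicate 1 or 2 (adjusted p 0.128 and 0.148). Lower in shUCHL1 were PXDN at -6.91, TAC1 at -3.29, KCNMB1 at -2.97 and VGF at -2.50, which have their values above, and EGR1 at -2.30. EGR1, an immediate early transcription factor, stood at 26.9 and 28.5 CPM in shCON, 22.1 and 21.4 CPM in shUCHL1 and 107 and 108 CPM in shHSPA8. Its fall against shCON was slight (-0.35, adjusted p 0.0496) and was lost without every library other than shCON replicate 1 (adjusted p up to 0.318). In the other genes the shUCHL1 and shHSPA8 libraries lay on either side of both shCON libraries.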

How the results depend on the processing

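Besides 14 other settings, a crossed replicate block and the removal of the length trend were added after seeing the data. UCHL1 kept its call in every setting, and all 1987 genes called in the main fit were called in the crossed block too. That block was added after the data were seen and called 3978 genes, so keeping these calls is no separate support for them. Outside the crossed block, where directions of single genes were not compared, none of 144 named genes reversed. Leaving out 1 library at a time gave 528 to 2615 changed genes (1987 with all), 83 to 1120 set apart (681), 165 to 536 called list members (442) and an HSPA8 difference of 0.34 to 0.40. The HSPA8 call was lost at 0.38 and 0.35 without shUCHL1 replicate 1 or 2, where 63 and 61 named calls were lost too. Of the named calls, 79 held in every setting other than the crossed block, and of 131 genes set apart, 39 did. The replicate numbers were not shown to pair libraries: deviations of the same number correlated at 0.337 between shCON and shUCHL1, -0.679 between shCON and shHSPA8 and -0.336 between the knockdown lines. With the number as a replicate block, 1230 genes were called and 321 set apart, and HSPA8 stood at 0.38 with an adjusted p of 0.0549 in edgeR. With the shHSPA8 numbers crossed, the block gave 3978 and 1831. Removing the length trend gave 2734 and 1128. DESeq2 called 1639 genes (48.9% higher) and limma-voom 1690 (49.1% higher). Other than through fewer libraries, the cause of these changes was not tested. In simulated data of this depth and number of libraries, 24 of 67 genes changed 1.5-fold were recovered. Those data lacked the unequal spread and the length trend of the real libraries, and only genes above 1 CPM in shCON were changed in them.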

Other observations

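Proteases of the matrix, guidance cues and brakes on growth factor signalling also held genes set apart in shUCHL1. ADAMTS1, a protease that cleaves versican, stood at 152 and 132 CPM in shCON, 73.5 and 67.7 CPM in shUCHL1 and 179.7 and 186 CPM in shHSPA8. ADAMTS9, a relative with the same substrate, stood at 56.3 and 40.7 CPM in shCON, 10.3 and 10.8 CPM in shUCHL1 and 48.4 and 59.3 CPM in shHSPA8. Both fell, by 1.01 and 2.20, and lay below every other library. VCAN, versican itself, rose in both knockdown lines: it stood at 364 and 241 CPM in shCON, 804 and 708 CPM in shUCHL1 and 1437 and 2062 CPM in shHSPA8, a rise of 1.32 in shUCHL1 that was lost without shUCHL1 replicate 1 (adjusted p 0.0601). ADAMTS16 rose by 1.73 at a low level and stood 2.76 above shHSPA8. The cadherin CDH6 rose by 1.504 and RARRES1, a retinoid-responsive gene, fell by 0.87. For ADAMTS1, ADAMTS9, ADAMTS16, CDH6 and RARRES1 adjusted p ran from 6.79e-04 to 0.00549 against shCON and from 6.11e-04 to 0.00426 against shHSPA8 in the quasi-likelihood test of edgeR (Benjamini-Hochberg adjusted).

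Beside the rise of SEMA3C, the plexins PLXNA2 and PLXNB1 and another semaphorin, SEMA3G, fell. PLXNB1 stood at 45.6 and 47.7 CPM in shCON, 25.8 and 28.1 CPM in shUCHL1 and 42.8 and 39.4 CPM in shHSPA8. It fell by 0.79, a call lost without shUCHL1 replicate 1. PLXNB1 was no longer set apart without shHSPA8 replicate 1 or without shUCHL1 replicate 1 or 2. PLXNA2, a semaphorin co-receptor, stood at 101 and 108 CPM in shCON, 48.3 and 43.5 CPM in shUCHL1 and 78.8 and 80.4 CPM in shHSPA8. SEMA3G stood at 14.5 and 14.9 CPM in shCON, 5.86 and 5.64 CPM in shUCHL1 and 13.02 and 11.5 CPM in shHSPA8. They fell by 1.18 and 1.35, and their differences from shHSPA8 of -0.80 and -1.09 were lost without shUCHL1 replicate 2 (adjusted p 0.0659) for PLXNA2 and shUCHL1 replicate 1 or 2 (adjusted p 0.0533 and 0.0585) for SEMA3G. SPRY4, an inhibitor of receptor tyrosine kinase signalling, stood at 47.0 and 47.4 CPM in shCON, 26.6 and 25.3 CPM in shUCHL1 and 44.6 and 46.3 CPM in shHSPA8. It fell by 0.86 and differed from shHSPA8 by -0.81, which was lost without shUCHL1 replicate 1 or 2 (adjusted p 0.0522 and 0.0603). All tests are the quasi-likelihood test of edgeR (Benjamini-Hochberg adjusted).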
